A study of Homo sapiens with 19 samples.

Results

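The SNORD45 family of box C/D small nucleolar RNAs has 3 members, SNORD45A, SNORD45B and SNORD45C, and the ribose methylations assigned to them were examined in Kasumi-1 cells, an established acute myeloid leukaemia line. Sites were taken from the deposited list by annotation: every site whose guides include 1 of these 3 names was kept. This gave 3 of the 120 listed sites, all in 18S rRNA, where 47 sites are listed. 18S-159 is annotated with SNORD45C and SNORD45A, 18S-172 with SNORD45A and SNORD45B, and 18S-174 with SNORD45C alone. The stretch examined with them has 41 positions, from 12 before 18S-159 to 13 after 18S-174, and holds 2 other listed sites, 18S-166 with SNORD44 and 18S-186 with a predicted guide.

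Box C/D snoRNAs pair with rRNA next to their D or D′ box, and the nucleotide opposite the fifth guide base receives a methyl group on its ribose. A pair of guide elements in a single snoRNA can serve different nucleotides, so that paralogous guides may share some targets and not others. Fibrillarin (FBL) is the methyltransferase of the particle and therefore acts with every such guide. The SNORD45 RNAs are known to be processed from introns of RABGGTB, the gene of a subunit of the enzyme that prenylates Rab proteins. In the RefSeq gene table all 3 snoRNA genes lie inside RABGGTB, in the order SNORD45C, SNORD45A and SNORD45B.

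Methylation was measured by RiboMethSeq in 19 libraries of total RNA. Cells carried a knockdown (KD) induced with 100 ng/ml doxycycline, also in control KD, or were SNORD127 clones labelled as untreated. The FBL KD groups held FBLTri, FBLQua, wild-type FBL, an empty vector or no re-expression, and the control KD groups held an empty vector or no re-expression, with 2 libraries in each of these 7 groups. A further 5 libraries were from cells edited at SNORD127, a guide of another family: knockout (KO) clone C1, KO clone C34, C1 carrying an empty vector, C1 carrying SNORD127, and a control clone whose column name has the form of the KO clones. The labels do not describe the mutations of FBLTri and FBLQua. Libraries titled FBLTri have Dual in their column names, and those titled FBLQua have Tri. Titles were followed, so which mutant a value belongs to rests on the titles. Column names of FBL KD contain shFBL1 and shFBL2 without a vector and shFBL4 with one, so a possible hairpin difference cannot be told apart from the vector. Control KD without a vector carries the same numbers after shLUC, so without a vector they may count replicates. If they name hairpins instead, the replicates of FBL KD without a vector differ in hairpin. Each clone is a single line. Nothing in the labels tells whether replicates were grown apart, and p-values therefore cover a spread between libraries that may be technical. End counts on rRNA hold no leukaemia marker and no FBL, SNORD127 or SNORD45 transcript, so the cell type, the knockdown and the guide levels were not checked.

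The values are end counts at each rRNA position and score C, a fraction that approaches 1 where all molecules are methylated. Methylation blocks hydrolysis, which leaves few ends at the read-out position, 1 nucleotide after the site. The score subtracts from 1 the ratio of that count to the weighted mean of 6 positions on either side. Libraries held 5533150 to 18835537 end counts, of which 23697 to 98767 fell in this 41-position window of 18S. Flank means ranged from 217.03 to 1528 counts at 18S-159, from 136.5 to 1037 at 18S-172 and from 154.6 to 1164 at 18S-174. The 95% counting interval of the score, which covers counting error only, had a median half-width of 0.0143, 0.0141 and 0.0416 at these sites. The flanks of 18S-159 hold no other read-out position, those of 18S-172 hold the read-outs of 18S-166 and 18S-174, and those of 18S-174 hold that of 18S-172.

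A single library stood apart in this stretch. In replicate 2 of control KD with empty vector, 41.8% of the end counts of the window lay at position 149, against 12.7 to 22.8% in the other 18 libraries, and 22 of the 41 positions were below all other libraries. Positions 149, 158, 164, 170 and 175 were above all others. Position 175 is the read-out of 18S-174, and its 628 counts exceeded the flank mean of 550.1, which gave a deposited score of 0. Positions 158 and 164 lie in the flanks of 18S-159, and position 170 in those of 18S-172 and 18S-174. The part of these raised counts in the scores of this library was not tested. Calls and directions that change without this library are given both ways.

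At 18S-159, which SNORD45A and SNORD45C guide, scores were lower in every FBL KD library than in any control KD library. The score was 0.881 and 0.885 in FBL KD and 0.842 and 0.856 in FBL KD with empty vector, against 0.984 and 0.996 in control KD and 0.972 and 0.996 in control KD with empty vector. The highest FBL KD library stayed below the lowest control KD library. Means were 0.866 ± 0.020 in FBL KD and 0.987 ± 0.012 in control KD (SD, n = 4 each), and the change was -0.121 (SE 0.0077, adjusted p = 6.81e-07, limma over 120 sites). In that comparison 71.7% of all sites were called lower, so the direction of 18S-159 was the common one. The site ranked 47th of 120 from the most negative change and 6th among the 18S sites. Expressed as the count at the read-out relative to its flanks, 13.4% remained cleavable in FBL KD and 1.31% in control KD.

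The loss at 18S-159 was -0.107 without re-expression and -0.135 with empty vector, both called (adjusted p = 3.10e-05 and 4.88e-06 by limma). Of all sites 59.2% and 67.5% were called lower there. The backgrounds differed by -0.028 (SE 0.015, 95% interval -0.063 to 0.008), which was not called at adjusted p = 0.221 by limma, against 30% of all sites called. Without replicate 2 of control KD with empty vector the change over both was -0.115 (SE 0.0073). Library medians of score C shifted by -0.118 in the same comparison. Relative to that median, 18S-159 changed by -0.0028 (adjusted p = 0.801 by limma), which was not called, and with empty vector alone by 0.0029. Both values set the site against the shift that the listed sites share. They do not test whether its own score fell. The median change over the 117 other sites was -0.083, a smaller fall than that of the library medians or of 18S-159.

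Re-expressed wild-type FBL raised 18S-159 on the deposited scale. The score was 0.933 and 0.948 with wild-type FBL, against 0.842 and 0.856 with empty vector. The gain was 0.091 (SE 0.011, adjusted p = 0.000102 by limma), in a comparison that called 57.5% of sites higher. The library median rose by 0.096, and relative to it 18S-159 changed by -0.0046, which was not called. On a log2 scale of the count ratio the gain itself was not called (adjusted p = 0.144 by limma). Cells with wild-type FBL stayed 0.044 below control KD with empty vector (change -0.044, SE 0.011, adjusted p = 0.0149 by limma; 29.2% of sites were called lower). That call was lost without replicate 2 of the control (-0.031, 23.3% of sites called lower), without replicate 1 of wild-type FBL (-0.036), when only the compared groups entered (adjusted p = 0.0878 by limma) and with equal library medians (-0.0018).

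Both FBL mutants took 18S-159 below the level of empty vector. Scores were 0.662 and 0.650 with FBLTri and 0.712 and 0.722 with FBLQua, against 0.842 and 0.856 with empty vector. The 3 groups, of 2 libraries each, did not overlap. How many of the 120 sites separate likewise was not counted. FBLTri changed the site by -0.193 (95% interval -0.218 to -0.168), the most negative value of the 47 sites in 18S and the second of all 120. FBLQua changed it by -0.132 (95% interval -0.157 to -0.107), again first in 18S and second overall (adjusted p = 6.98e-06 and 0.000155 by limma). Of all sites, 20% were called lower with FBLTri and 11.7% with FBLQua. Library medians moved by only -0.0011 and -0.0057 here, and with equal medians the changes were -0.192 and -0.126, both called. On a logit scale neither call held (adjusted p = 0.0623 and 0.234 by limma), nor on the log2 ratio scale (0.468 and 0.974), and that of FBLQua was lost when only the compared groups entered the fit (0.0857).

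Against wild-type FBL the mutant libraries were lower at 18S-159 by -0.285 (SE 0.011) for FBLTri and -0.223 (SE 0.011) for FBLQua (adjusted p = 1.98e-07 and 1.07e-06 by limma). These comparisons called 62.5% and 59.2% of sites lower. Both calls were kept under all 15 alternatives each, with values from -0.292 to -0.188 and from -0.231 to -0.122 on the score scale. FBLTri lay below FBLQua by -0.061 (SE 0.011, adjusted p = 0.0167 by limma), where 5% of sites were called lower (3.33% without the library that stood apart, with 18S-159 still called). That call was lost when replicate 1 or 2 of FBLTri (-0.067 and -0.055) or replicate 1 or 2 of FBLQua (-0.066 and -0.056) was left out, when only the compared groups entered (adjusted p = 0.193 by limma), and on the logit and log2 ratio scales.

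**Figure D1:**
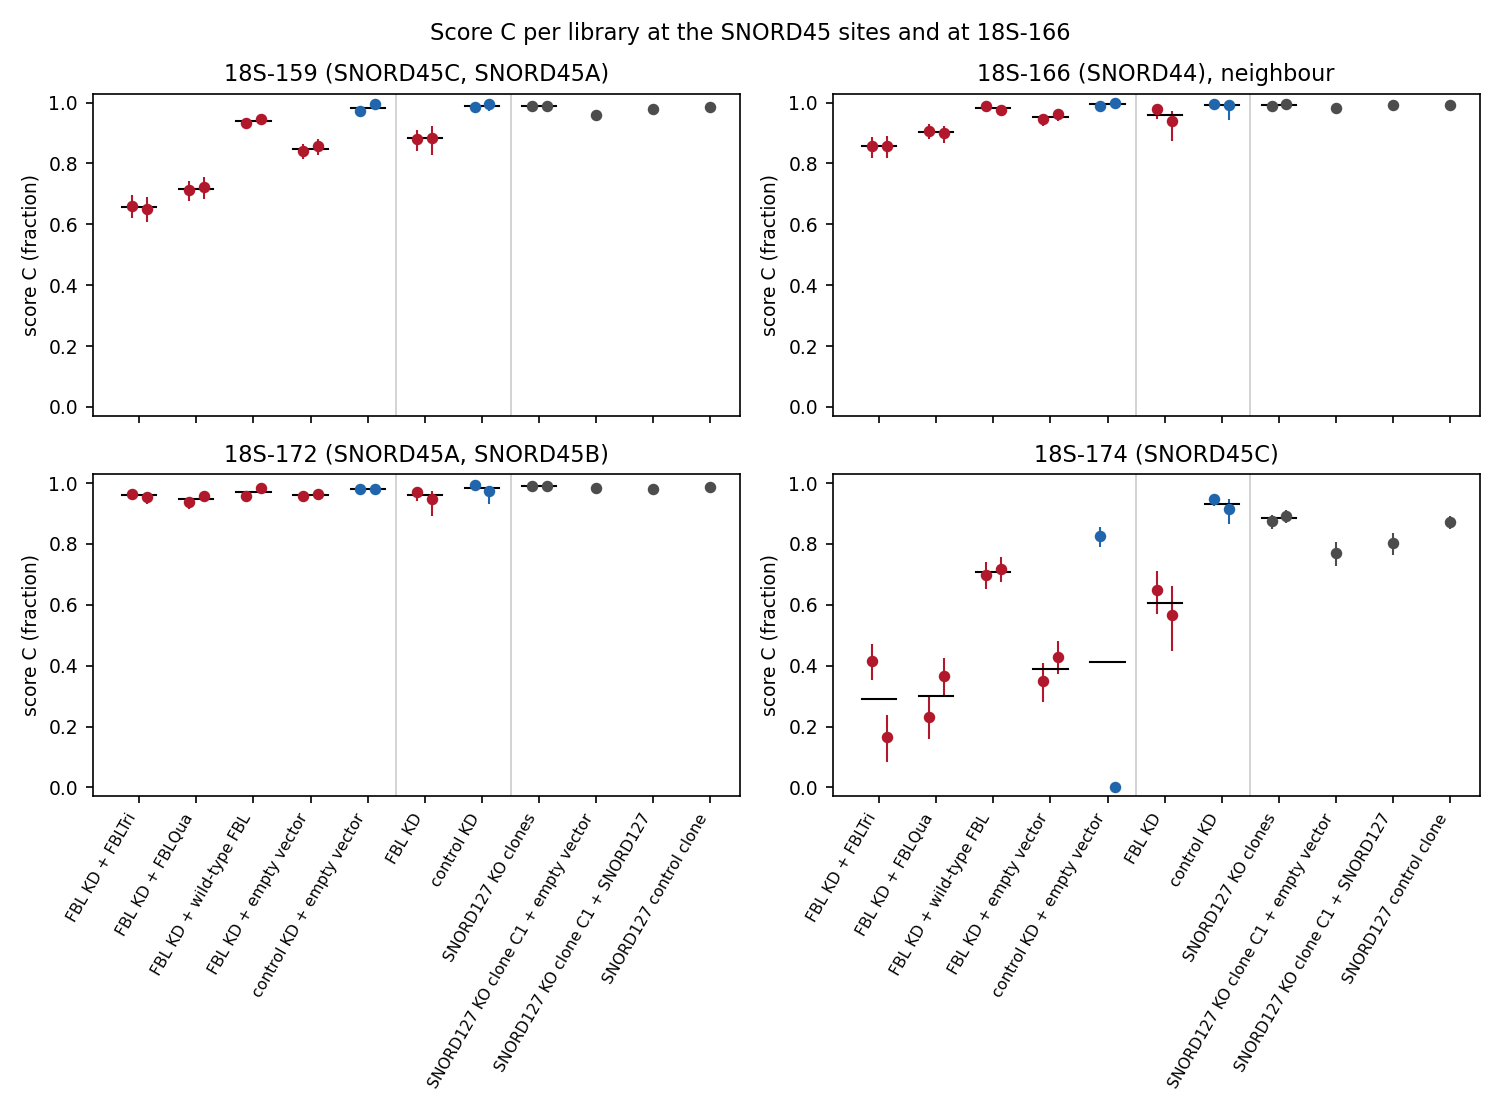
Score C (fraction, y axis) of each library by group at 18S-159, 18S-166, 18S-172 and 18S-174, where points are libraries, vertical lines 95% counting intervals and horizontal lines means of 2 libraries. At 18S-159 the FBLTri libraries are lowest (0.662 and 0.650), and at 18S-174 replicate 2 of control KD with empty vector is at 0, against 0.825 in replicate 1.

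Ordered by group mean, 18S-159 was lowest with FBLTri (0.656), followed by FBLQua (0.717), FBL KD with empty vector (0.849), FBL KD without re-expression (0.883) and FBL KD with wild-type FBL (0.940). Libraries of neighbouring groups did not overlap along this order, with only 2 libraries in each group. Clone C1 with empty vector followed at 0.961. From there upward the groups, at 0.981 to 0.99, lay within the range of 0.972 to 0.996 that the control KD libraries spanned.

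18S-174, annotated with SNORD45C alone, was less methylated than the other SNORD45 sites in every library. The score was 0.648 and 0.567 in FBL KD and 0.348 and 0.429 in FBL KD with empty vector, against 0.948 and 0.916 in control KD and 0.825 and 0 in control KD with empty vector. Only the library that stood apart was as low as the knockdown. With it, FBL KD averaged 0.498 ± 0.135 and control KD 0.672 ± 0.451 (SD, n = 4 each), and the change of -0.174 (SE 0.152, adjusted p = 0.313 by limma) was not called.

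Without replicate 2 of control KD with empty vector, control KD averaged 0.896 ± 0.064 (SD, n = 3) and the knockdown change at 18S-174 was -0.380 (SE 0.065, adjusted p = 0.00106 by limma). That was the eighth most negative of 120 changes and the second in 18S, in a fit that called 70% of sites lower. Without re-expression the fall was -0.324 and with empty vector -0.436, both called (adjusted p = 0.0101 and 0.00659 by limma), as were 59.2% and 60.8% of all sites. The value with empty vector then rests on 1 control library, at 0.825, which is assumed to vary like the libraries of the other groups. Without replicate 1 of that control instead, which leaves the library that stood apart as the only control with empty vector, the change over both backgrounds was 0.032 and that with empty vector 0.388. The change with empty vector thus turns sign on the choice of 1 control library, and with all libraries it was also turned by equal library medians (0.114), by scores not set to 0 (0.047) and by leaving neighbouring read-outs out of the flanks (0.019), without a call. Over both backgrounds, with all libraries, the change on the log2 ratio scale was -1.49 and was called (adjusted p = 0.0132 by limma). The share of all sites called on that scale was not counted. With equal library medians and all libraries the change over both backgrounds was -0.056 and not called.

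Wild-type FBL gave 0.699 and 0.718 at 18S-174, against 0.348 and 0.429 with empty vector. These groups, of 2 libraries each, did not overlap, but how many of the 120 sites separate likewise was not counted. The gain of 0.320 was not called with all libraries (SE 0.215, adjusted p = 0.239 by limma). The library that stood apart is in neither group but enters the shared spread, and without it the same gain had SE 0.083 and was called (adjusted p = 0.0129 by limma). In that fit 57.5% of sites were called higher. The gain was the fifth highest of 120 and the highest in 18S, and equal library medians, with all libraries, left 0.224. It was also called when only the compared groups entered (adjusted p = 0.0122 by limma), where the share of all sites called was not counted. Against control KD with empty vector, wild-type FBL differed by 0.296 with all libraries, by -0.116 without replicate 2 of that control and by 0.708 without its replicate 1. Of these 3 values only the last was called (adjusted p = 0.0027 by limma).

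Neither mutant moved 18S-174 past the test against empty vector. Scores were 0.415 and 0.166 with FBLTri and 0.232 and 0.367 with FBLQua, and both overlapped the empty-vector libraries, at 0.348 and 0.429. Changes against empty vector were -0.098 (95% interval -0.292 to 0.096) and -0.089 (95% interval -0.283 to 0.105) without the library that stood apart, and neither was called (adjusted p = 0.440 and 0.550 by limma). Against wild-type FBL they were -0.418 and -0.409, called in that fit (adjusted p = 0.00329 and 0.00362 by limma) and not with all libraries (0.123 and 0.129). In that fit 62.5% and 60.8% of sites were called lower. Those were the most negative changes in 18S in both comparisons.

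18S-172, annotated with SNORD45A and SNORD45B, remained highly methylated throughout, between 0.937 and 0.994 in all 19 libraries. It scored 0.971 and 0.949 in FBL KD and 0.958 and 0.964 in FBL KD with empty vector, against 0.994 and 0.974 in control KD and 0.980 in both libraries of control KD with empty vector. The groups did not overlap, but the gap between the highest FBL KD and the lowest control KD library was within counting error. Its change of -0.022 (SE 0.0082, adjusted p = 0.0392 by limma) was called lower on the deposited scale, as were 71.7% of all sites. That change ranked 95th of 120 from the most negative and 32nd among the 18S sites. With equal library medians the change was 0.096 and was called higher. That setting takes the median shift of -0.118 out of every site, so a site that stays near 1 comes out higher. The value of 0.096 therefore does not show a gain in methylation. The call was lost when any 1 of 6 libraries was left out. These were replicate 2 of FBL KD (-0.016), both FBL KD libraries carrying empty vector (-0.020 and -0.023), replicate 1 of control KD (-0.017) and both control KD libraries carrying empty vector (-0.022 each). It was also lost with flanks of 2 positions (-0.016).

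Re-expression left 18S-172 within a narrow range. It scored 0.965 and 0.954 with FBLTri, 0.937 and 0.958 with FBLQua and 0.958 and 0.985 with wild-type FBL, against 0.958 and 0.964 with empty vector. FBLTri and wild-type FBL overlapped empty vector, and the higher FBLQua library lay just below it. Changes against empty vector were -0.0015 with FBLTri (95% interval -0.028 to 0.025), -0.014 with FBLQua (95% interval -0.040 to 0.013) and 0.010 with wild-type FBL (95% interval -0.016 to 0.037). None was called by limma (adjusted p = 0.975, 0.535 and 0.510). Relative to the library median, which rose by 0.096 with wild-type FBL, the change with wild-type FBL was -0.085 and called lower. FBLQua minus wild-type FBL was -0.024 and not called. It was called lower without replicate 1 of wild-type FBL (-0.037, adjusted p = 0.0403 by limma), and equal library medians turned it to 0.077, called higher. The read-out held 3 to 41 counts per library, and differences within the counting intervals were not detectable at this depth.

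**Figure D2:**
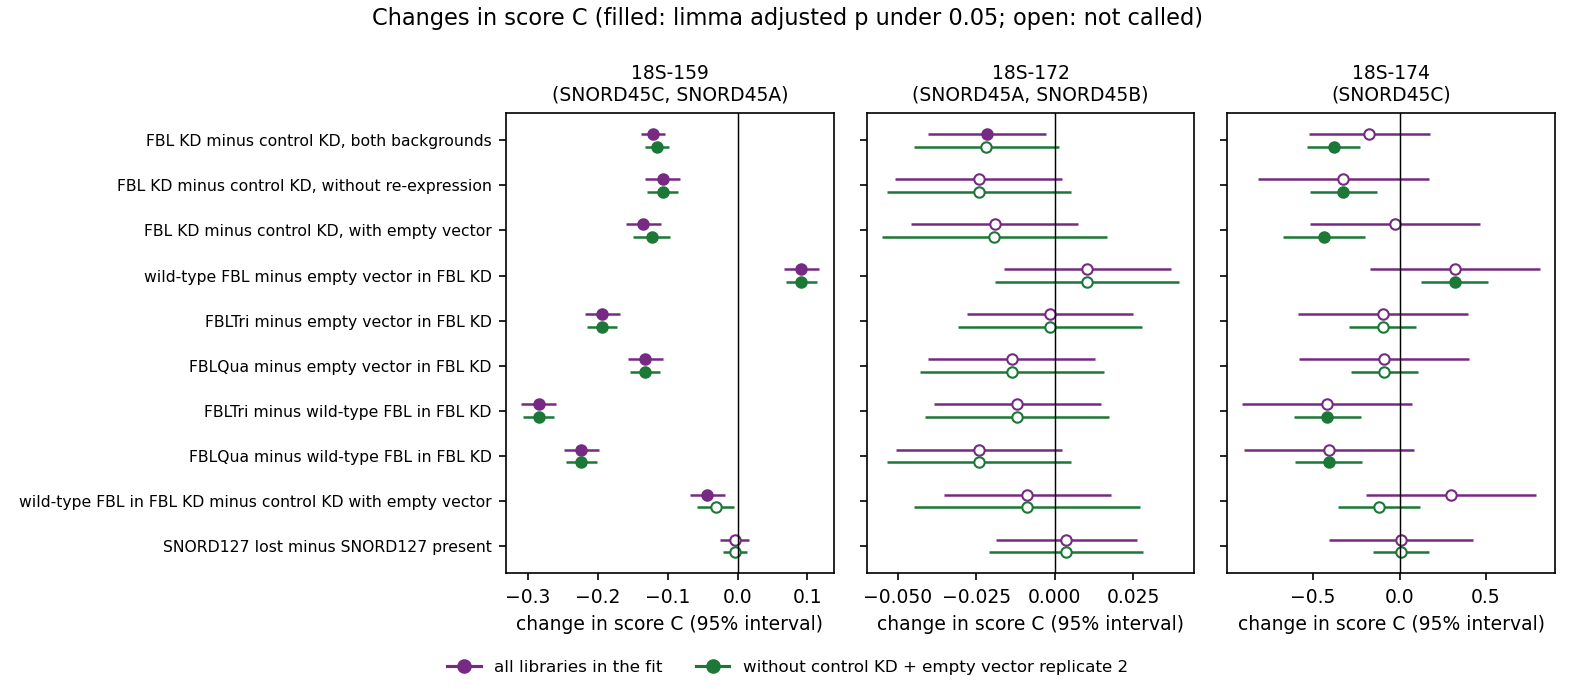
Change in score C with its 95% interval (x axis, a separate scale for each site) for 10 comparisons (rows) at the SNORD45 sites, with all libraries and without replicate 2 of control KD with empty vector. At 18S-174 the intervals narrow and 6 comparisons become called once that library is left out. Relative to the library medians the knockdown change of 18S-172 is positive and that of 18S-159 with empty vector is 0.0029, which the plot does not show.

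The SNORD45 sites were compared with each other by the difference of their scores within a library, tested between FBL KD and control KD in 3 pairs by two-sided exact permutation. 18S-159 minus 18S-172 averaged -0.095 ± 0.023 in FBL KD and 0.0047 ± 0.016 in control KD (SD, n = 4 each), without overlap. The exact permutation p was 0.0286, the smallest that 70 arrangements allow, and 0.0857 adjusted over the 3 pairs (0.0429 without the library that stood apart). 18S-174 minus 18S-172 averaged -0.463 ± 0.133 in FBL KD and -0.310 ± 0.449 in control KD (SD, n = 4 each, exact p = 0.571). Without the library that stood apart the control value was -0.087 ± 0.060 (n = 3, exact p = 0.0286, adjusted p = 0.0429). That exact p is the smallest that 35 arrangements allow. Without the same library 18S-174 minus 18S-159 averaged -0.368 ± 0.116 in FBL KD and -0.088 ± 0.056 in control KD (n = 4 and 3, exact p = 0.0571, adjusted p = 0.0571). With all libraries that pair gave exact p = 0.886. These pairs were chosen after the values had been seen, and the arrangements exchange libraries across backgrounds. The library that stood apart was left out after its own 18S-174 score had been seen, so p-values without it depend on that choice.

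Leaving the read-outs of other listed sites out of the flanks changed no call at the SNORD45 sites. The knockdown change over both backgrounds was then -0.121 at 18S-159, -0.019 at 18S-172 (adjusted p = 0.0397 by limma) and -0.136 at 18S-174 (not called). With empty vector the change at 18S-174 was 0.019, against -0.024 from the deposited scores, neither called. Mean scores of 18S-174 became 0.542 in FBL KD, against 0.905 in the 3 other control KD libraries.

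**Figure D3:**
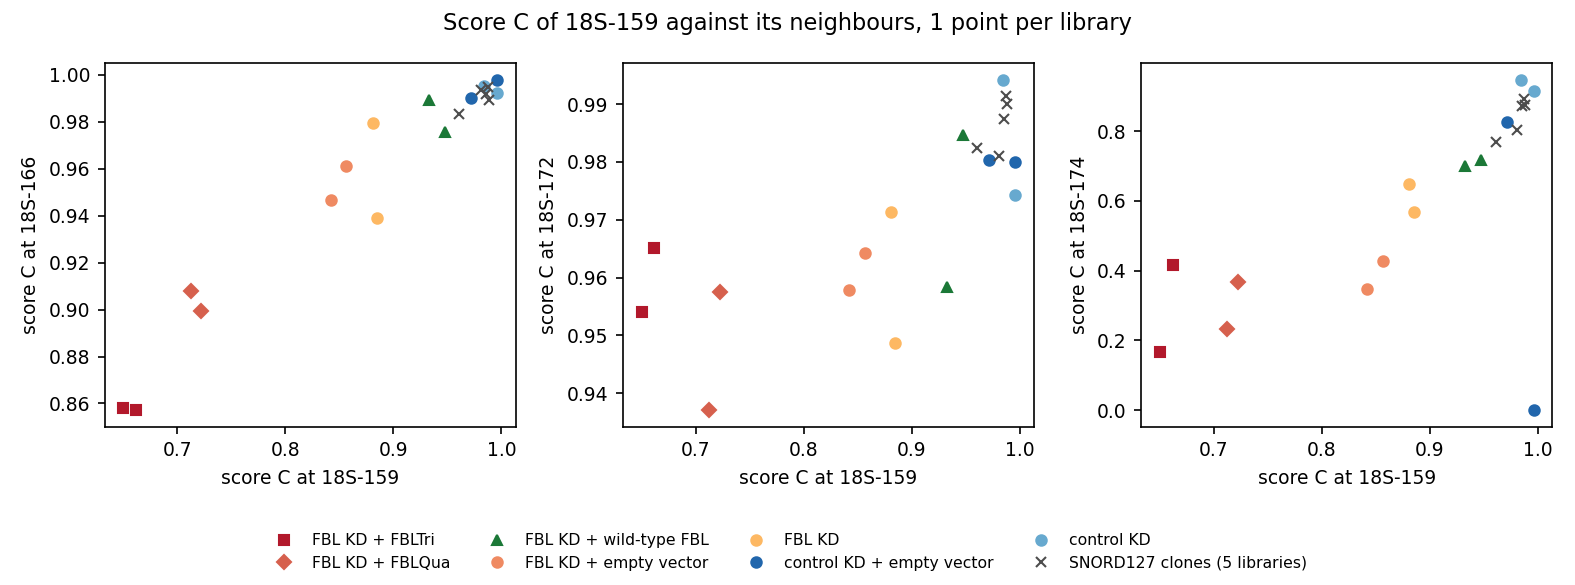
Score C at 18S-159 (x axis) against that at 18S-166, 18S-172 and 18S-174 (y axes, each on its own scale), 1 point for each of 19 libraries. The mutant libraries lie lowest on the x axis (0.650 to 0.722), and the point at 0 in the right panel is replicate 2 of control KD with empty vector.

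The end counts behind the scores were tested on their own with edgeR's quasi-likelihood test over 6548 rRNA positions. Of the 41 positions of the window 2 were called higher in FBL KD over both backgrounds and 0 lower, where 1.05% of all positions were called higher. They were position 160, the read-out of 18S-159, with a log2 change of 3.46 (adjusted p = 0.000122), and position 167, that of 18S-166, with 2.72 (adjusted p = 0.0155). Position 160 held 45 and 25 counts in FBL KD and 148 and 128 in FBL KD with empty vector, against 8 and 1 in control KD and 27 and 3 in control KD with empty vector. Per 10000 end counts of 18S these were 0.257, 0.195, 0.481 and 0.426 in FBL KD, against 0.051, 0.0081, 0.087 and 0.0096 in control KD. The groups did not overlap, and how many of the 6548 positions separate likewise was not counted.

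The read-out of 18S-172, position 173, had a log2 change of 1.40 and that of 18S-174, position 175, of 1.19, neither called by edgeR (adjusted p = 0.429 and 0.486). Position 175 held 102, 67, 418 and 461 counts in the 4 FBL KD libraries, against 33, 17, 114 and 628 in control KD, each with the libraries without a vector first. Without the library with 628 counts its log2 change was 2.35 and was called (adjusted p = 0.000123 by edgeR). The median log2 change of the 41 positions was 0.37, against -0.032 over all positions tested. TMM factors, which enter these changes, were 0.515 and 0.338 in FBL KD and 1.28 and 0.595 in control KD. With empty vector they were 1.37 and 1.24 in FBL KD and 1.39 and 0.733 in control KD. The window held 1.85 to 2.31% of 18S end counts in FBL KD and 2.00 to 2.05% in control KD. The part of scaling in the median of 0.37 was not tested. The number of called positions fell to 1 without replicate 2 of FBL KD, and likewise without the first replicate of control KD or of FBL KD carrying an empty vector. It was 9 without replicate 2 of control KD, 5, of which 3 were higher, without replicate 1 of control KD with empty vector, and 3 without replicate 2 of the same group.

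**Figure D4:**
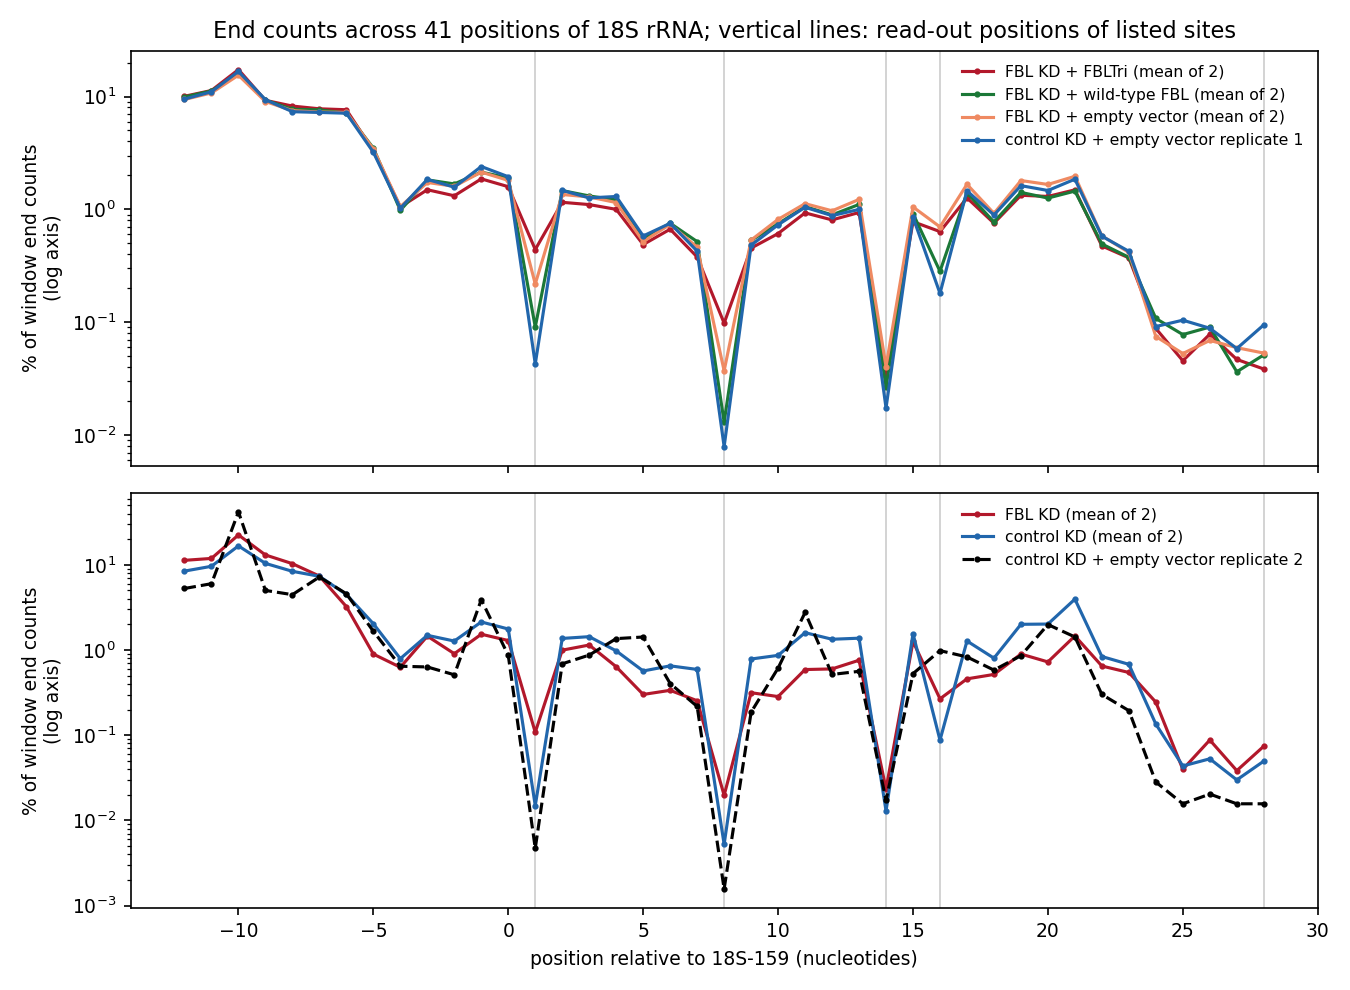
Share of the window's end counts at each of 41 positions of 18S (y axis, percent, log axis) against the distance from 18S-159 (x axis, nucleotides), as means of 2 libraries or as single libraries. Gaps at the vertical lines mark protected positions, and in replicate 2 of control KD with empty vector the gap of 18S-174 is absent.

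With re-expression no read-out passed the edgeR test. Position 167 had the largest change of the window in all 3 comparisons, and position 160 came next after it with either mutant. At position 160 the log2 change was 1.02 with FBLTri, 0.89 with FBLQua and -1.34 with wild-type FBL, each against empty vector. At position 175 the values were -0.15, -0.04 and -1.36. In each comparison 0 of the 41 positions were called by edgeR at adjusted p, or by DESeq2, and 2 had an unadjusted p under 0.05. Over all positions 0 were called with either mutant, and 0.137% were called lower with wild-type FBL.

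**Figure D5:**
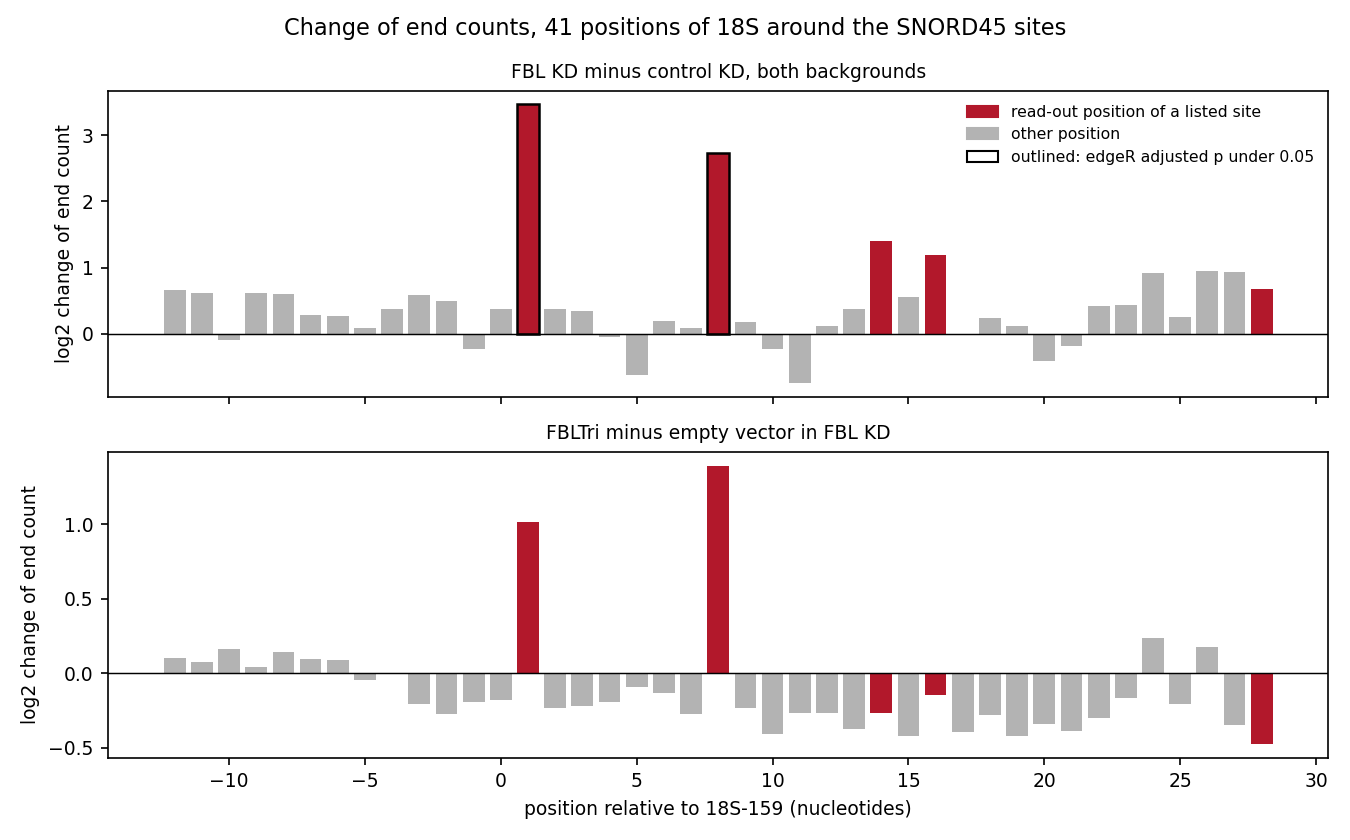
Log2 change of the end count (y axis, a separate scale in each panel) by distance from 18S-159 (x axis, nucleotides) for FBL KD minus control KD and for FBLTri minus empty vector. The read-outs of 18S-159 and 18S-166 stand at 3.46 and 2.72 in the knockdown and at 1.02 and 1.40 with FBLTri.

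18S-166, guided by SNORD44, lies 7 nucleotides from 18S-159 and was called lower with either mutant and in FBL KD. Scores were 0.857 and 0.858 with FBLTri and 0.908 and 0.899 with FBLQua, against 0.947 and 0.961 with empty vector. Changes were -0.097 and -0.050, both called (adjusted p = 0.000258 and 0.0182 by limma). Its knockdown change was -0.037 (SE 0.0083), called with all libraries and without the one that stood apart (adjusted p = 0.00298 and 0.0133 by limma), and smaller than the shift of the library median. With wild-type FBL against empty vector 18S-166 changed by 0.029, which was not called (adjusted p = 0.0651 by limma). 18S-186, a position with a predicted guide, scored 0.607 to 0.874 over the libraries and was called in none of these comparisons.

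Across 19 libraries, which share their treatment groups and the flank counts of nearby sites, the score of 18S-159 followed 28S-2338 (SNORD24, Pearson r = 0.983), 18S-116 (SNORD42B and SNORD42A, 0.982) and 18S-1442 (SNORD61, 0.975) most closely. 18S-166 came next (0.972), while 18S-172 ranked 60th (0.755) and 18S-174 82nd (0.671). Without the library that stood apart 18S-174 had r = 0.928 with 18S-159 and ranked 18th. The sites most like 18S-172 were 18S-590 (SNORD62A and SNORD62B, r = 0.871), 28S-4020 (SNORD102, 0.840) and 28S-2774 (SNORD99, 0.837). Those most like 18S-174 were 18S-576 (SNORD93, r = 0.819), 28S-2352 (SNORD24, 0.809) and 18S-1288 (SNORD110, 0.784). Without that library these ranked 32nd, 11th and 9th. For 18S-172 the second rank then went to 18S-174, at r = 0.854. These values describe the libraries and carry no test.

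Other parts of the guide repertoire give the scale of these changes on the deposited scores. In FBL KD 24 of the 44 other 18S sites were called lower and 1 higher, with a median change of -0.042, against -0.083 over all 117 other sites. Among the 6 other sites at 18S positions 1 to 400, 3 were called lower, with a median of -0.031. Of 34 other sites with lettered guides, as the SNORD45 sites have, 26 were called lower (median -0.087). Of 27 other sites with at least 2 guides in separate entries that begin with SNORD, 22 were called lower (median -0.097). Sites whose second guide was abbreviated or joined to the first, such as 28S-4468 and 18S-1606, were counted as having 1 guide. Of 42 other sites with a listed neighbour within 6 positions, 32 were called lower (median -0.085). With FBLTri against empty vector, 3 of the 6 sites at positions 1 to 400 were called lower and 0 higher (median -0.061), among all other sites 23 were lower and 20 higher, and for 34 lettered guides 8 and 8. With FBLQua these counts were 3 and 0, 13 and 9, and 5 and 4.

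No SNORD45 site was called in the SNORD127 clones, with intervals that are wide at 18S-174. At 18S-159 the score was 0.988, 0.987 and 0.961 in clones C1, C34 and C1 with empty vector, against 0.986 in the control clone and 0.981 in clone C1 with SNORD127. The library of C1 with empty vector was below all control KD libraries, the lowest of which was 0.972. The difference of -0.0042 (95% interval -0.025 to 0.016) was not called (adjusted p = 1 by limma). Differences were 0.0036 at 18S-172 (95% interval -0.019 to 0.026) and 0.0089 at 18S-174 (95% interval -0.408 to 0.425, or -0.153 to 0.171 without the library that stood apart). At 18S-174 the libraries without SNORD127 scored 0.876, 0.893 and 0.770, and those with it 0.873 and 0.802. Both clone C1 libraries with a construct were below the 3 libraries without one. In this comparison 0.833% of all sites were called lower. Clones C1 and C34 were fitted as replicates of the same group, so the difference between these clones also entered the spread. Single libraries have no spread of their own, so the other groups, mostly knockdown, lent it. Clone C1 stands on the side without SNORD127 both alone and with empty vector.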

How the data were processed

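Per the submitters' processing notes cutadapt and Bowtie2 were used. Their versions, the rRNA reference and the counted fragment end: not given in the sources used here. Per the labels' protocols, cells were grown in 20% serum and 100 ng of total RNA was hydrolysed at 95 °C for 12 min to about 30 nucleotides. The authors deposited whole-number end counts for 7000 rRNA positions, not normalized, and score C as a fraction for 120 sites. Recomputed from the end counts with negative values set to 0, score C matched the deposited one within 1e-09 in 2280 of 2280 cases. A ratio within a library makes depth a matter of precision, and a lone high count moves the score of its neighbours.

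Score changes were fitted in R 4.3.3 by limma 3.58.1 (a coefficient per group, variance trend, two-sided, Benjamini-Hochberg over 120 sites at 0.05), in the 14 knockdown libraries or, for SNORD127, all 19. Counts were tested with edgeR 4.0.16 (quasi-likelihood, TMM, positions with at least 10 counts in 2 libraries), with DESeq2 1.42.0 as an alternative. Both tests were tried on simulated data with the same spread at every site or position, so the trial does not cover a site as variable as 18S-174. Counting intervals are 95% delta-method Poisson intervals of the log ratio. They and the depth above treat every read as a molecule, which reads lacking molecular identifiers are not. Replicate pairs differed by 17.9 to 699.8 in chi-square per position, so none agreed within sampling noise.

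The sites, lists and tests were chosen with earlier results of these data known. Named sites are the SNORD45 sites, other listed sites at 18S 147 to 187, the 3 most correlated with each, and read-out positions. Alternatives were the compared groups alone, no variance trend, logit and log2 ratio scales, scores not set to 0, flanks of 2 positions, neighbouring read-outs left out, equal library medians, a filter of the 10% of sites with the lowest flank counts, a replicate block and each replicate left out. For counts they were DESeq2 size factors, DESeq2, no filter, 18S only, the block and each replicate left out. Leaving the library that stood apart out of every fit and the tests between sites were added after seeing the data. Scores and plots were made in Python 3.11.15 (numpy 2.4.6, pandas 2.3.3, scipy 1.17.1, matplotlib 3.10.9).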

Additional observations from a re-analysis of the deposited data

Results flagged for a closer look

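At 18S-174, 1 of the 4 control KD libraries lay far from the others: replicate 2 with empty vector scored 0, against 0.825 to 0.948 in the other 3. The gap made up 0.871 of the range of the 4 libraries. Chance alone marks about 1 in 20 such groups at the 95% level, and 6 groups of 4 libraries were looked at. That library also had 20.8% of its end counts at a single 28S position, where each of the others had between 0.241 and 2.72%. Without it the knockdown change at 18S-174 was -0.380, against -0.174 with it.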

How the results depend on the processing

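Of 552 alternatives for score changes 472 kept direction and call, 17 gained a call, 27 lost one and 36 changed sign. Of the 36, 27 were called neither before nor after. Of 120 for log2 end-count changes 114 kept both, 1 gained a call and 5 changed sign without a call. The cause was not tested unless the setting itself removes samples.

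Equal library medians gave, at 18S-172, 0.0965 in FBL KD over both backgrounds, 0.0744 without re-expression, 0.118 with empty vector, -0.0854 for wild-type FBL minus empty vector, and 0.0850 and 0.0774 for FBLTri and FBLQua minus wild-type FBL, all reversed, and without a call 0.0331 for wild-type FBL minus control KD. At 18S-174 with empty vector they gave 0.114, and sign changes under other settings were 1.07 on the logit scale, 0.0468 with scores not set to 0 and 0.0186 with neighbouring read-outs left out, none called. At 18S-159 equal medians gave -0.0028, -0.0085 and 0.0029 for the 3 knockdown comparisons, -0.0046 for wild-type FBL minus empty vector and -0.0018 for wild-type FBL minus control KD, none called. Equal medians take the shift of the library median out of every site, so these values place a site relative to the listed sites as a set. With only the compared groups, 18S-159 lost its call for FBLQua minus empty vector (-0.132), FBLTri minus FBLQua (-0.0613) and wild-type FBL minus control KD (-0.0435). Calls were gained at 18S-174 without re-expression (-0.324), for wild-type FBL minus empty vector (0.320) and for FBLTri and FBLQua minus wild-type FBL (-0.418 and -0.409), and at 18S-172 with empty vector (-0.0191). On the log2 ratio scale 18S-174 was called over both backgrounds (-1.49) and without re-expression (-2.53), while 18S-159 was not called for wild-type FBL (1.34), FBLTri (-1.19) and FBLQua (-0.906) minus empty vector or FBLTri minus FBLQua (-0.283). On the logit scale the last 3 were not called either (-1.08, -0.799 and -0.286). Flanks of 2 positions ended the knockdown call of 18S-172 (-0.0159) and gave a call to the background difference of 18S-159 (-0.0395), which turned to 0.0046 on the logit scale and 0.0114 with equal medians. They turned 18S-174 to 0.0115 for FBLTri minus FBLQua and -0.0014 for SNORD127, uncalled.

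Same-numbered libraries did not deviate together throughout: over 21 pairs of groups r ranged from -0.226 to 0.694, with 12 over 0.1, so the numbers were not taken as pairs. A replicate block ended the knockdown call of 18S-172 (-0.0217, adjusted p = 0.0551 by limma) and changed no other call at the SNORD45 sites or count of the window. It turned the log2 change at position 175 with FBLQua to 0.0061.

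Leaving out each library in turn gave -0.0273 to -0.0161 for 18S-172 in FBL KD and -0.0373 to -0.0110 for it in FBLQua minus wild-type FBL. Its sign changed, without a call, for the difference of backgrounds (-0.0061 to 0.0164), wild-type FBL minus empty vector (-0.0027 to 0.0235), FBLTri minus empty vector (-0.0070 to 0.0041), FBLTri minus wild-type FBL (-0.0250 to 0.0012) and wild-type FBL minus control KD (-0.0218 to 0.0044). At 18S-174 the ranges were -0.380 to 0.0320 over both backgrounds, -0.365 to -0.284 without re-expression, -0.436 to 0.388 with empty vector, -0.112 to 0.713 for the difference of backgrounds, 0.280 to 0.360 for wild-type FBL minus empty vector, -0.116 to 0.708 for wild-type FBL minus control KD, -0.543 to -0.294 for FBLTri minus wild-type FBL, -0.476 to -0.341 for FBLQua minus wild-type FBL, -0.223 to 0.0265 for FBLTri minus empty vector, -0.134 to 0.115 for FBLTri minus FBLQua and -0.0266 to 0.0470 for SNORD127. At 18S-159 they were -0.0672 to -0.0555 for FBLTri minus FBLQua, -0.0556 to -0.0314 for wild-type FBL minus control KD and -0.0089 to 0.0047 for SNORD127. Log2 changes against empty vector ranged from -0.34 to 0.019 at position 175 with FBLTri, from -0.13 to 0.61 at position 173 with FBLQua and from -0.23 to 0.126 at position 175 with FBLQua. Called positions of the window ranged from 1 to 9. Among the SNORD45 sites counting error was widest at 18S-174, with a median half-width of 0.0416.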
